A study of Mus musculus with 84 samples.

Results

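MMC9s are mucosal mast cells of the small intestine named for their production of IL-9, and 81 of them from wild-type (WT) BALB/c mice were sequenced as individual cells. The mice had been sensitized to ovalbumin and then challenged with it by mouth. The sort took c-Kit+ ST2+ cells low in β7-integrin that were Lin- and IL-17RB2- and high for IL-4GFP, so an IL-4 reporter helped to choose the cells. The series holds 84 samples in all, with 3 pooled bulk libraries of MMC9s beside the cells. Only the WT bulk library is used below, as a separate level: it was made from 12 to 20 pooled replicates of an adoptive transfer model in which WT bone marrow progenitors entered ovalbumin-sensitized WT mice, followed by 7 oral challenges. Both groups are labelled WT, and the reporter is not described further. The labels name no animal, age or sex for the cells, so the cells were treated as 1 sample and no p-value is given.

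A cell was kept with at least 10000 reads in genes, at least 500 detected genes, under 20% of reads in mitochondrially encoded genes and under 10% in immunoglobulin genes. This left 68 of 81 cells. High mitochondrial reads alone removed 10 cells, immunoglobulin reads alone removed 1, both together removed 1, and cell 77 left with 1225 reads. The mitochondrial threshold had cell 07 just inside (18.9%) and cell 43 just outside (24.6%), while the highest removed cell reached 90.8%. The highest immunoglobulin share of a kept cell was 0.162%. Of the 10 cells removed for mitochondrial reads alone, 9 still had at least 10 reads of each of the 7 mast cell markers listed below. So did cell 37, removed for both mitochondrial and immunoglobulin reads.

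Mast cells store proteases, histamine and serotonin in granules packed around the proteoglycan serglycin. They release them when allergen crosslinks IgE on the high-affinity receptor FcεRI, and then make cytokines and chemokines. Mucosal mast cells are known for the β-chymases Mcpt1 and Mcpt2, and connective tissue mast cells for the chymases Mcpt4 and Cma1, the tryptases Tpsb2 and Tpsab1 and the carboxypeptidase Cpa3.

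The promoters of 6 genes the results turn on are shown because closely similar promoters occur among the proteases and the letters of a TATA box occur in variable and uniform ones alike. Each is the 100 bases before the RefSeq start (GRCm38.p6), 5′ to 3′ on the gene's strand. Capitals mark each TATAAA on that strand, the letters of a TATA box, and each AGATAA or its complement TTATCT, the letters of a GATA factor motif. The windows are chr14:56017864-56017963 (plus) for Mcpt1, chr14:56062311-56062410 (minus) for Mcpt4, chr14:55944676-55944775 (minus) for Cma1, chr3:20242182-20242281 (minus) for Cpa3, chr1:173227230-173227329 (minus) for Fcer1a and chr10:62527446-62527545 (minus) for Srgn.
Mcpt1: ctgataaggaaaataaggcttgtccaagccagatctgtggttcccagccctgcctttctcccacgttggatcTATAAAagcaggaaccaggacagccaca
Mcpt4: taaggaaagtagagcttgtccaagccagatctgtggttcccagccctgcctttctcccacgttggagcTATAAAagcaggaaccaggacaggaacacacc
Cma1: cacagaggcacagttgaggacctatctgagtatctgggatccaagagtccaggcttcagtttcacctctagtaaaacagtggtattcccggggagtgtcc
Cpa3: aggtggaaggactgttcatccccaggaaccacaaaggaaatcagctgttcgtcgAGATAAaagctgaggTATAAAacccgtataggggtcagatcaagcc
Fcer1a: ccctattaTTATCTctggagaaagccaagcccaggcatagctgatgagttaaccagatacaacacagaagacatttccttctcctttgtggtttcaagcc
Srgn: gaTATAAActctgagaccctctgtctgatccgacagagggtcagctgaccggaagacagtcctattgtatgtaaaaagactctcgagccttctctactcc

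The Mcpt1 and Mcpt4 windows had 91 identical bases in an alignment of 104 columns, against 61 identical bases in 111 columns for Mcpt1 and Cma1. TATAAA began at position -28 in Mcpt1, -32 in Mcpt4, -31 in Cpa3 and, farther upstream, -98 in Srgn, counting back from the start. It lay at -45 to -16 on the gene's strand in 3 of the 12 granule proteases with a promoter in the table (25%), against 0.888% of 4054 measured genes and 2.87% of all 17670 promoters with a gene in the files. The 3 span the range of variation, since Mcpt1 varied widely between cells and Cpa3 little. Among genes at least 0.5 log2 above the trend of variation defined below the share with TATAAA was 0.391% of 512, and among those as far below it 2.27% of 572. AGATAA or TTATCT within 250 bases before the start occurred in 2 of the 12 proteases (16.7%) and in 5.45% of measured genes.

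Each kept cell held 623183 to 2210211 reads in genes (median 1326893) and at least 1 read of 3239 to 6825 genes (median 4613.5). With every cell thinned to 150000 reads the range was 1873 to 5125 genes (median 3185.5). Spearman's rho of genes detected after thinning was 0.54 with reads and -0.50 with the mitochondrial share over the 68 cells. No unique molecular identifiers or spike-in RNAs are described in the sources used here, so cell-to-cell variation in RNA and variation from capture and amplification cannot be told apart. No 2 cells had identical counts. Pearson's r between cells on log2(CPM + 1) over measured genes had a median of 0.36 and reached 0.53. Levels are in CPM, the gene reads of a cell scaled to a common total. Detection means 10 reads or more in that cell, and each share of cells is given with its 95% Clopper-Pearson interval, which covers counting only.

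The 7 markers given for MMC9s were detected together in 67 of the 68 cells, and the other cell lacked Kit. Detection at 10 reads does not by itself mark a mast cell here. Removed cell 37, with 48.1% immunoglobulin reads, also had all 7, and removed cell 46, with 73.2%, had 6. In cell 46 Mcpt1 stood at 15.5 CPM and Hdc at 78.8 CPM, within the range of kept cells. Cpa3, the mast cell carboxypeptidase (ENSMUSG00000001865), ranged from 4637 to 34328 CPM with a median of 17710 CPM. Fcer1a (ENSMUSG00000005339), the IgE-binding chain of FcεRI, ranged from 1963 to 10887 CPM with a median of 6127 CPM. Both were high in every cell, with no cell near 0. Gata2, a transcription factor that mast cells need, ranged from 155 to 5618 CPM with a median of 2204 CPM. Hdc, which makes histamine, ranged from 18.9 to 29512 CPM with a median of 8421 CPM and was under 100 CPM in 2 cells. The remaining markers each had a tail of low cells. Kit, the stem cell factor receptor, ran from 4.87 to 9542 CPM (median 1968), Il1rl1, which encodes ST2, from 14.3 to 7896 CPM (median 1567), and Mcpt1 from 14.3 to 49122 CPM (median 6335).

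Markers of most other cell types were at 0 or few cells, but several progenitor genes were widespread. Of 11 progenitor genes 8 were detected, with Cd34 in 67 cells at up to 5222 CPM, Tespa1 in 63, Meis1 in 35 and Myb in 21. At least 3 of the 11, which include Kit, were detected in 65 cells. No cell had 10 reads of any of 11 neutrophil or 11 erythroid and platelet genes, which allows up to 4.41% of cells for each gene (3 of 68), or 5.28% by the upper Clopper-Pearson bound. Of 16 epithelial genes 3 were detected in any cell, of 13 stromal or endothelial genes 2, and of 9 eosinophil genes 2. The macrophage list had C1qa in 6 cells and Csf1r in 1, but Cx3cr1, a chemokine receptor, in 62 of 68, with a median of 833 CPM and a summed list level of 0 to 5326 CPM. Cd3e, a T cell receptor chain, reached 10 reads in 30 cells (44.1%, 32.1 to 56.7%) and 1670 CPM in the highest, while its partner Cd3d was detected in 2 cells, Trac and Cd247 in 1 each and Lck, a T cell kinase, in 14 at up to 345 CPM. Of 13 T cell genes 8 were detected in no cell. Of 12 genes of type 2 innate lymphoid cells 8 were detected, with Il7r, the IL-7 receptor, in 17 cells at up to 1196 CPM and the others in 1 to 6. Of 11 B cell and plasma cell genes 5 were detected, with Cd79b, a B cell receptor chain, in 11 cells at up to 470 CPM. At least 3 of 12 dendritic cell and MHC class II genes were detected in 10 cells, with H2-Ab1 in 21 and Itgax in 2. The basophil genes Mcpt8 and Prss34 are described with the proteases. The part of other cells or free RNA in these levels was not tested.

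Variation was measured as the coefficient of variation (CV, the SD of CPM over the mean) in 5763 genes with a mean of at least 20 CPM, called measured genes. CV fell with level, from a median of 2.95 in 3975 genes at 20 to 100 CPM to 0.77 in 109 genes at 1000 to 10000 CPM. Each gene was therefore set against the running median of the genes nearest in mean CPM, and its distance is given in log2 units. Genes with means from 1091 CPM up share the same trend value, so genes at the top are also compared directly with genes of like CPM.

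**Figure D1:**
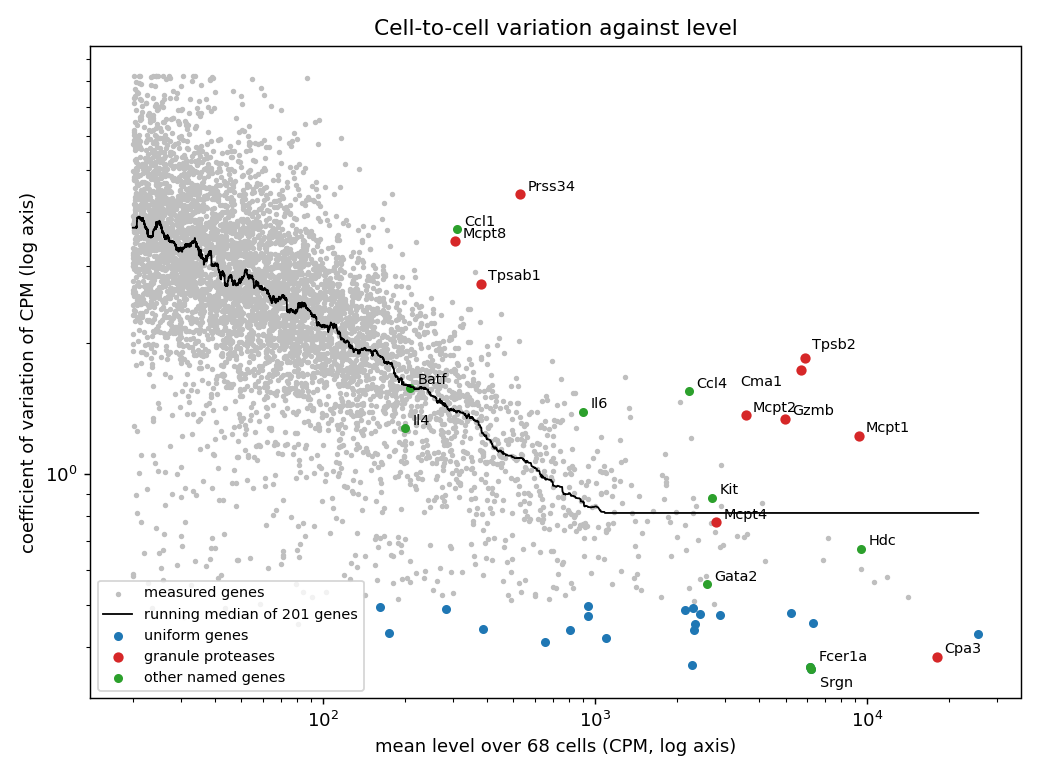
Mean CPM over the 68 kept cells (x, log axis) against the CV of CPM (y, log axis) for each measured gene (grey), with the running median (line), uniform genes (blue), granule proteases (red) and other named genes (green). Cpa3, Srgn and Fcer1a lie at the bottom with CVs of 0.38, 0.36 and 0.36, while Mcpt1, Cma1 and Tpsb2 at comparable CPM lie at 1.23, 1.74 and 1.85.

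A small number of genes were both present in every cell and low in CV. A gene was called uniform when every cell had at least 10 reads and the CV was at most 0.5. This held for 22 of 5763 measured genes (0.382%), out of 116 detected in every cell (2.01%). The count of 22 rose to 58 without the 17 cells with the fewest reads and fell to 1 with all 81 cells. Mast cell genes among them were Srgn, Fcer1g, Fcer1a and Cpa3. Srgn, the serglycin core protein, ranged from 2092 to 10905 CPM (median 6034), and Fcer1g, the signalling chain of FcεRI, from 183 to 1273 CPM (median 578). The highest and lowest cells differed several-fold, and every cell had them. Cyp11a1, the enzyme that starts steroid synthesis from cholesterol, also met the rule, with a CV of 0.47. Its range of 21.1 to 6484 CPM was far wider, so the CV limit does not exclude very low cells.

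The cytoskeletal genes among the uniform genes were Actb, Tmsb4x, Myh9, Rac2, Actr2 and Iqgap1. Actb, β-actin, ranged from 7356 to 55397 CPM with a median of 23923 CPM, and Tmsb4x, thymosin β4, from 673 to 4696 CPM with a median of 2199 CPM. Rps29, Rps27 and Rps9 of the small ribosomal subunit, the elongation factor Eef1a1, the MHC class I light chain B2m, ferritin Ftl1 and the ubiquitin gene Ubb were uniform as well. The lowest distance from the trend was -2.07 for Gm1821, annotated as a transcribed pseudogene, whose reads the authors' counting may have split with a near-identical gene. The others were Ptp4a2, a phosphatase, Ifitm2 and Itm2b.

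Most measured granule proteases varied more between cells than genes of their level. Of the 11 measured, 9 lay above the trend and 2, Cpa3 and Mcpt4, below, with a median distance of 0.82 log2, against a median of 0 and 49.6% above over all measured genes. All 9 were at least 0.5 above, a margin passed by 12.9% of measured genes. The β-chymase Mcpt1 (ENSMUSG00000022227, GRCm38 chromosome 14, 56017971 to 56020384) was under 100 CPM in 11 cells, under 1000 CPM in 15 and at 10000 CPM or more in 22. Mcpt2 (ENSMUSG00000022226, chromosome 14, 56042041 to 56044642) was detected in 64 cells and ranged from 0 to 27546 CPM with a median of 1784 CPM. Cells with little and cells with much of these chymases therefore stood side by side among cells that all held Cpa3.

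Cma1 (ENSMUSG00000022225, chromosome 14, 55941451 to 55944675), the connective tissue chymase, was detected in 66 cells and ranged from 4.57 to 73168 CPM with a median of 3071 CPM. It was under 100 CPM in 6 cells and at 10000 CPM or more in 11. The tryptase Tpsb2 (ENSMUSG00000033825, chromosome 17, 25366305 to 25369098) was detected in 55 cells (80.9%, 69.5 to 89.4%) and ranged from 0 to 53964 CPM with a median of 856 CPM. It was the most divided of the 7 main proteases, under 100 CPM in 24 cells and at 10000 CPM or more in 13. Gzmb, granzyme B, ranged from 2.91 to 36309 CPM (median 3098), and the CV of Mcpt4 was 0.77, just below the trend at -0.07.

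At like read support the contrast was direct. Within 0.8 times the mean CPM of Cma1 and the inverse of that factor there were 8 other genes, with CVs from 0.36 for Srgn to 1.85 for Tpsb2 and a median of 0.56. Mcpt1, with a CV of 1.23, had 3 genes of like level, of which Hdc had the highest CV at 0.67. Mcpt2 had a higher CV (1.36) than all 10 genes of like level. Mcpt4 lay inside its neighbours, above 17 of 24. Cpa3 had no gene of like level, so it was set only against the trend value shared by the top genes.

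**Figure D2:**
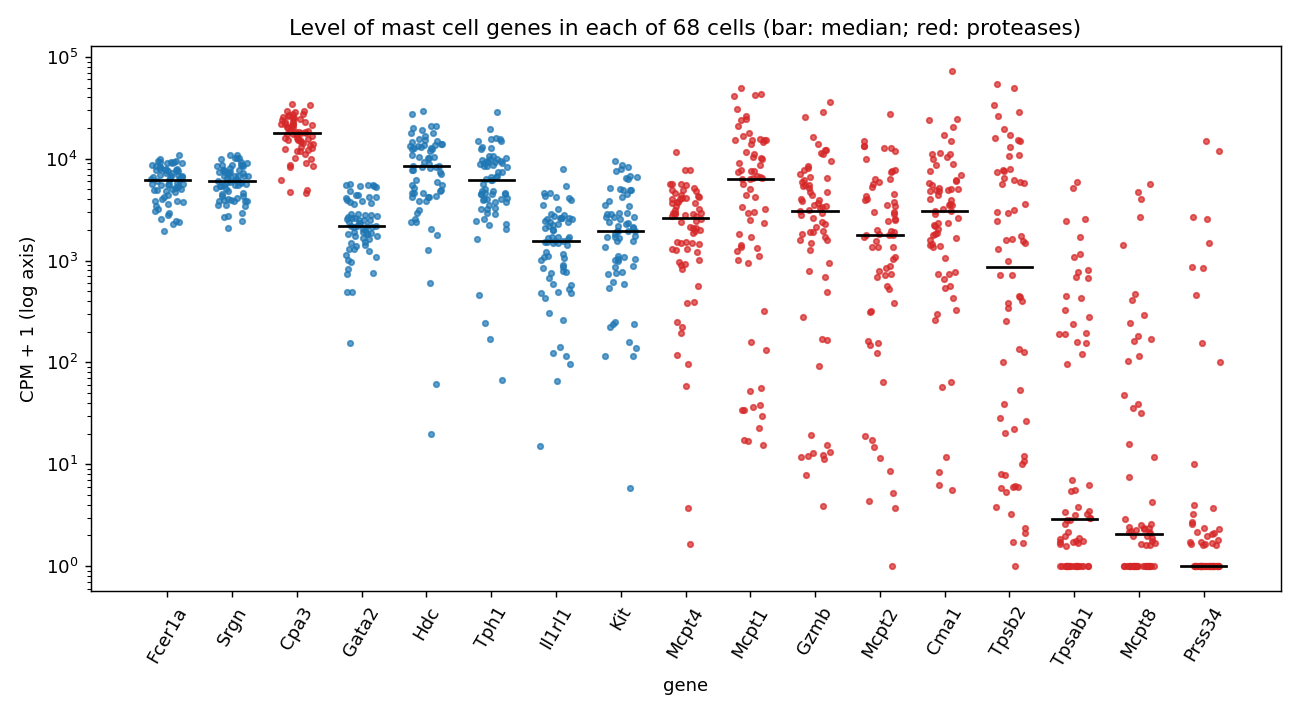
CPM + 1 (log axis) of 17 mast cell genes in each of the 68 cells, 1 point a cell, with the median as a bar and proteases in red. Fcer1a, Srgn and Cpa3 form narrow bands, whereas Tpsb2 spreads from 0 to 53964 CPM and Prss34 is at or near 0 in most cells.

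Prss34 and Mcpt8, proteases known from basophils, were found in a minority of cells. Prss34 (ENSMUSG00000056399) had the largest distance from the trend of all genes detected in at least 8 cells, 2.02 log2. It was detected in 11 cells (16.2%, 8.36 to 27.1%), with a median of 0 CPM over all cells and a highest level of 14961 CPM, and that cell held 41.4% of its summed CPM. Mcpt8 was detected in 20 cells and reached 5682 CPM. Of the 11 cells with Prss34, 4 also had Mcpt8, which is 36.4% of the former and 20.0% of the latter, and the product of the 2 shares would give 3.24 cells. Gzma, granzyme A, was detected in 6 cells and lay 0.82 above the trend. The 5 proteases under 20 CPM on average, Cma2, Tpsg1, Ctsg, Gzmc and Mcpt9, were detected in 2 to 15 cells. Fcer1a, Cpa3 and Gata2, which basophils share, were present in every cell, and Cd200r3, a basophil receptor, was detected in 29. Among the other listed basophil genes, Ifitm1 was detected in 60 cells, Csf1 in 19 and Itga2 in 3.

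Per kilobase of annotated exon, Cpa3 was the highest of 7 proteases in 36 cells, Mcpt1 in 17, Cma1 and Tpsb2 in 5 each, Gzmb in 4 and Mcpt2 in 1. Median CPM per kilobase was 11675 for Cpa3, 6247 for Mcpt1, 2817 for Cma1 and 537 for Tpsb2. The sum of the 7 ranged from 9360 to 162239 CPM with a CV of 0.48, above the CV of Cpa3 and below those of the other 6.

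Some proteases were high in the same cells. Spearman's rho over the 68 cells is given as a description, since the cells are 1 sample, depth differs among them and cells of several animals may be mixed. Mcpt1 and Mcpt2 had a rho of 0.66, also 0.66 in thinned counts, and each had 0.43 with Mcpt4. Cma1 followed the tryptase Tpsb2 on another chromosome (0.51), and Tpsb2 followed Tpsab1 (0.52). Spearman's rho was negative at -0.29 for Mcpt1 and Cma1 and at -0.33 for Mcpt1 and Tpsb2, where the 1st percentile of all gene pairs described below was -0.25. Annotated transcripts of Mcpt1 and Mcpt2, of Mcpt1 and Mcpt4 and of Tpsb2 and Tpsab1 shared none of their 50-base stretches. How the authors' counting treated reads with several matches is not stated in the labels or processing notes.

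Some partners of the proteases lie outside the family. Cma1 had a rho of 0.55 with Serpinb1a, an inhibitor of chymase-like proteases, detected in all 68 cells. Tpsb2 had 0.55 with Laptm5, a lysosomal membrane protein. Hdc had a rho of 0.67 with Ndrg1, a stress-regulated gene of mast cell maturation detected in 59 cells, and 0.67 in thinned counts.

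**Figure D3:**
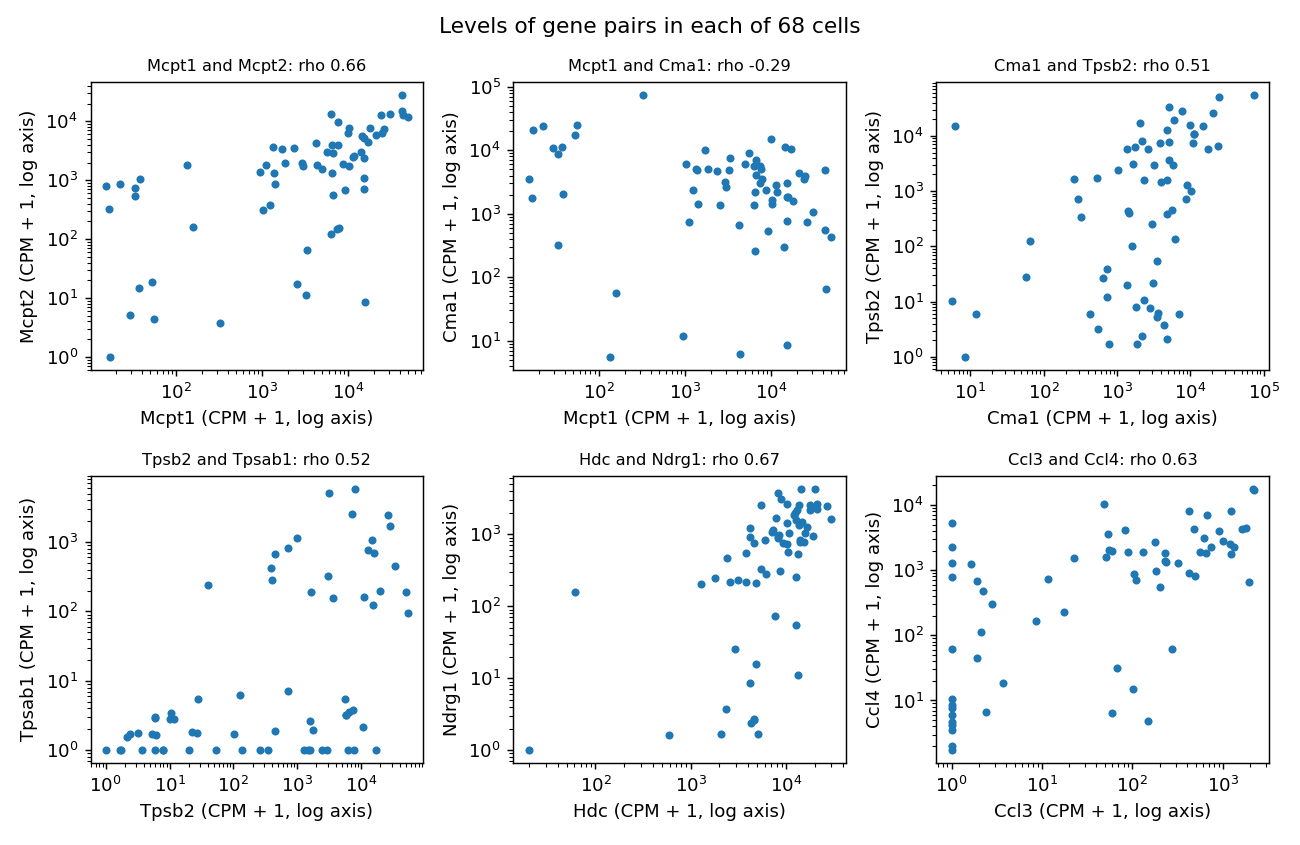
Levels of 6 gene pairs in each of the 68 cells (both axes CPM + 1, log axes), with Spearman's rho over cells in each panel title. Mcpt1 rises with Mcpt2 (0.66) and Tpsb2 with Tpsab1 (0.52), Mcpt1 falls weakly with Cma1 (-0.29), and the lowest Mcpt1 cells include cells with high Cma1.

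Type 2 and other cytokine transcripts were detected in differing shares of cells. Il4 (ENSMUSG00000000869), whose reporter was part of the gate, was detected in 54 cells (79.4%, 67.9 to 88.3%) and ranged from 0 to 1174 CPM with a median of 132 CPM. Its CV of 1.27 was below the trend by 0.33 log2, so at its level it varied less than most genes. Il6 (ENSMUSG00000025746), an inflammatory cytokine, was detected in 51 cells (75%, 63 to 84.7%) and ranged from 0 to 6195 CPM with a median of 308 CPM. It lay 0.69 above the trend. Both were detected in 44 cells, which is 81.5% of cells with Il4 and 86.3% of cells with Il6. The product of the 2 shares would give 40.5 cells.

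Il13, the mucus-inducing cytokine, was detected in 12 cells (17.6%, 9.47 to 28.8%) and at 54.5 CPM at most. In the WT bulk library, which comes from another mouse model, it stood at 287 CPM. Il9 (ENSMUSG00000021538), the cytokine that names MMC9s, was detected in 1 cell (1.47%, 0.0372 to 7.92%) at 744 CPM, and stood at 5.65 CPM in the bulk library. The other 67 cells had under 10 Il9 reads. Il3 and Il5 had 0 reads in all 68 cells. Of the other measured cytokines, Lif was detected in 34 cells, Osm in 35, Tnf in 21, Csf1 in 19 and Il10 in 9. Over the 7 measured cytokines the median distance from the trend was 0.06, with 4 above and 3 below.

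Genes of IL-4 receptor signalling were present in varying shares of cells but lay near the trend. Of 18 measured members, 10 were above and 8 below, with a median of 0.06 log2, and 7 counted as on-off by the rule below, which 34.9% of all measured genes met. Il4ra, the receptor α chain, was detected in 29 cells (42.6%, 30.7 to 55.2%) and ranged from 0 to 1859 CPM with a median of 1.79 CPM. Il2rg, the common γ chain, was detected in 66 cells (median 749 CPM), Jak1 in 62 and Stat6, the signal transducer, in 43. Batf, the AP-1 factor in the study's title, was detected in 48 cells (70.6%, 58.3 to 81.0%) and ranged from 0 to 1747 CPM with a median of 115 CPM. Its distance from the trend was -0.01, so its unevenness was that of a typical gene of its level. Irf4, a DNA-binding partner of BATF, was detected in 9 cells, 8 of which also had Batf, where the product of shares would give 6.35. Il4ra and Batf were detected together in 22 cells, where the product of shares would give 20.5, with a rho of -0.00.

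Of the surface proteins of the gate, Itgb7 transcripts were found in most cells and those of Il17rb in few. Itgb7, β7-integrin, was detected in 59 cells (median 97.0 CPM, highest 1292 CPM). Il17rb, which may correspond to the negative marker of the gate, was detected in 6 cells and exceeded 1000 CPM in its highest cell (1231 CPM). Those 6 cells had a median of 14.4 CPM.

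Genes of IgE receptor signalling covered a wide range of variation. Of 22 measured members, 14 lay above the trend and 8 below (median 0.10). The receptor chains Fcer1g and Fcer1a had the lowest distances, -1.26 and -1.17, followed by the adaptors Lat at -0.74, Lat2 at -0.59 and Grap2 at -0.41. Ms4a2, the β chain of the receptor, was detected in all 68 cells and ranged from 159 to 9303 CPM with a median of 2228 CPM. Its CV of 0.74 placed it nearer the trend, at -0.14. At the other end stood the adaptor Gab2 (0.74), detected in 16 cells, and the ubiquitin ligase Cbl (0.57), in 26. Syk, the kinase that FcεRI recruits, was detected in 19 cells, while Lcp2, the adaptor SLP-76, was detected in all 68.

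Chemokine genes varied more than genes of their level. All 5 measured chemokines lay above the trend (median 0.93), and 4 of them by 0.5 or more. Ccl4, an attractant of macrophages and T cells, was detected in 59 cells and ranged from 0.727 to 17789 CPM with a median of 1274 CPM. Ccl2, which attracts monocytes, was detected in 62 cells and reached 15617 CPM. Ccl1 was detected in 29 cells at up to 7984 CPM, and 1 cell held 37.8% of its summed CPM. Ccl3 and Ccl4 rose and fell together (rho 0.63, 0.63 thinned), and Ccl3 was detected with Ccl4 in 43 of its 45 cells. Reads of Ccl1 come from a gene model of over 100 kilobases, so overlapping transcripts may contribute.

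A wider set of genes was picked for moving with these chemokines. Among Il6, Pim1, Nfkbiz, Ccl1, Ccl3, Ccl4, Gimap5, Serpina3g, Cd9 and Zc3h12c, chosen after their values were seen, all 45 pairs had a positive rho (0.08 to 0.63, median 0.38). The choice favoured positive values, so they only describe the set. Serpina3g had 0.21 with Ccl3 and 0.08 with Cd9. Nfkbiz, a regulator induced by NF-κB, had 0.60 with Ccl3, and the survival kinase Pim1 had 0.62 with Gimap5 and 0.51 with Il6. Il4 had other partners. Its highest rho was 0.54 with Nr4a3, an orphan nuclear receptor induced by calcium signals (0.48 thinned), and it had 0.23 with Il6.

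Immediate early and NF-κB genes lay mostly above the trend, 19 of 25 measured with a median of 0.20 log2. Fos, an AP-1 subunit, ranged from 0.835 to 10235 CPM with a median of 649 CPM. Egr1 was detected in 67 cells with a CV of 0.86 and a distance of 0.08. Atf3, a stress-induced factor, lay farthest above at 1.05 and was detected in 27 cells.

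Inhibitory receptors lay above the trend in 10 of 14 measured genes (median 0.21). Havcr2, TIM-3, had the largest distance at 0.70 and ranged from 0.692 to 4518 CPM. Growth and cytokine receptors were above in 6 of 10 (median 0.19), a direction that reversed to -0.15 over 17 genes when no minimum level was set. Csf2rb, the shared β chain of the IL-3 and GM-CSF receptors, was among the steadier members at -0.15 and was detected in all 68 cells.

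Genes of translation and respiration lay lowest against the trend as groups. All 64 measured ribosomal protein genes lay below the trend with a median of -1.14 log2, and 61 were at least 0.5 below, a margin passed by 15.4% of measured genes. Of 31 measured oxidative phosphorylation genes, 29 lay below (median -0.97), with Cox6c, a cytochrome oxidase subunit, at -1.60. Rpl23a, the lowest ribosomal protein gene at -2.28, averaged only 42.1 CPM although 65 cells had it. A gene whose reads were lost to or split with near-identical genes would be set against genes of too low a level. The part of this in these distances was not tested. Housekeeping genes were below in 15 of 18 (median -0.62). Mitochondrially encoded genes, whose share also chose the cells, had a median of -0.66, which reversed to 0.65 with all 81 cells.

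Gene length moved with these distances. Over 5463 measured protein-coding genes, rho of exon length with distance from the trend was 0.34, and the 1366 shortest genes had a median distance of -0.29 against 0.11 in the 1366 longest. Set against the median of genes of like length, ribosomal proteins were still at -0.99 with 64 of 64 below, and oxidative phosphorylation genes at -0.81 with 27 of 31 below. Granule proteases, which are short, moved from 0.82 to 1.11, and chemokines from 0.93 to 1.22.

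**Figure D4:**
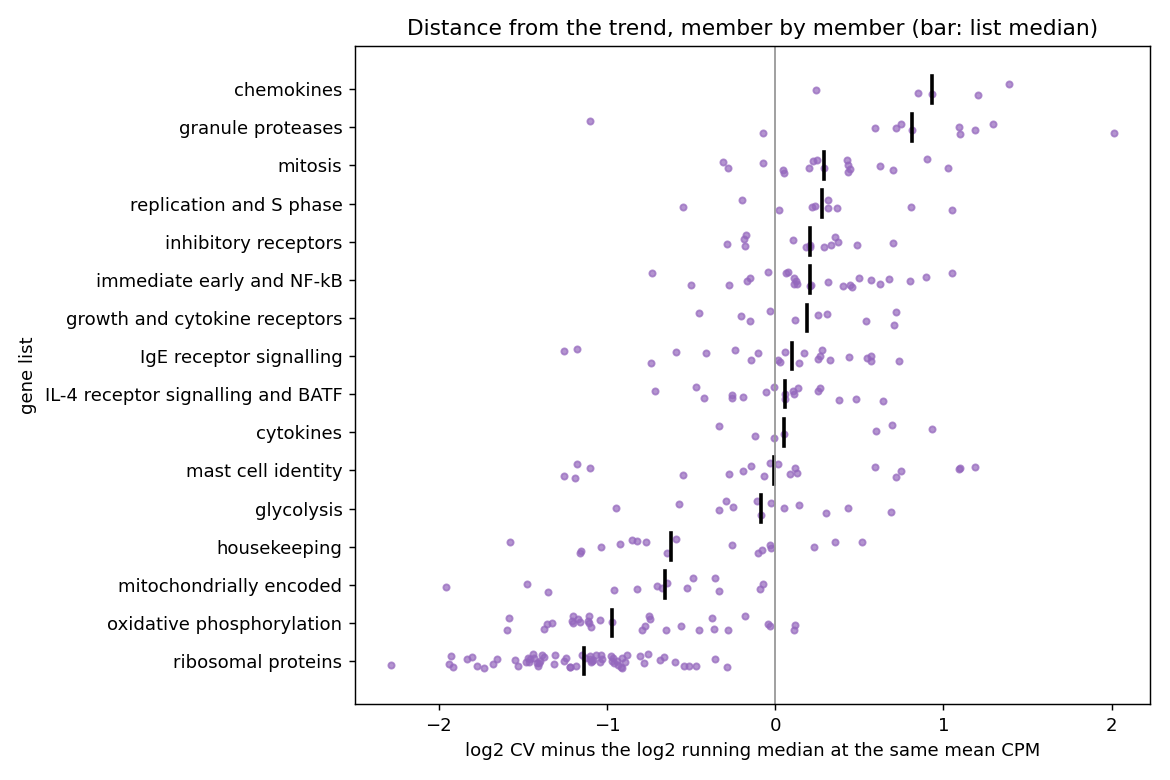
Distance from the trend of variation (log2, x) for each measured member of 16 gene lists (y), 1 point a gene. Bars mark list medians. The value 0 marks the running median of the genes nearest in mean CPM, which is shared by all genes from 1091 CPM up. Chemokines and granule proteases lie to the right except Cpa3 at -1.10 and Mcpt4 at -0.07, and all ribosomal proteins lie to the left.

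Many genes were readily detected in some cells and not in others. A gene was called on-off when 20% to 80% of cells had at least 10 reads of it and the median level in those cells was at least 100 CPM. This held for 2014 of 5763 measured genes (34.9%). The highest levels where present were those of Tug1, a long noncoding RNA detected in 50 cells at a median of 1473 CPM, Inafm2 in 51 cells at 1016 CPM and Poldip3 in 49 cells at 865 CPM. Slc20a1, a phosphate transporter, was detected in 15 cells at a median of 714 CPM and had a median of 0 CPM over all cells. Among combinations of an on-off gene and a cell under 10 reads, 65.9% had 0 reads and 34.1% had 1 to 9. With detection at 1 read the count fell to 259, of which 241 were among the 2014, so it rests on the detection level.

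Some genes appeared at high level in very few cells. In at most 5% of cells and at 1000 CPM or more in the highest were 91 of 14090 genes detected in at least 1 cell (0.646%). The count rests on the detection level and the cells kept: it was 13 with detection at 1 read, 30 without the 17 cells with the fewest reads and 193 with all 81 cells. Mrgprb2, a receptor for basic secretagogues known from connective tissue mast cells, was detected in 2 cells and reached 2567 CPM. Itgae, the αE integrin that pairs with β7, was detected in 3 cells and reached 3666 CPM. Pik3ap1, an adaptor of PI3 kinase, reached 3678 CPM in 1 of its 3 cells. The top cell held at least 90% of the summed CPM in 57 of the 91 genes. Cells 23 and 80 were the highest cell for 10 of these genes each, and 73 genes met the rule without those 2 cells. In the WT bulk library 39 of the 91 had at least 10 reads and 18 had 0.

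The 15 genes farthest above the trend in at least 8 cells were Prss34, Ccl1 and Mcpt8, described above, and 12 others with no shared role named here. Gtpbp2 (1.57) reached 5176 CPM in its highest cell, which held 78.7% of its summed CPM. Hjurp, a centromere histone chaperone, reached 4940 CPM in a cell that held 77.6%.

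Cell cycle genes marked a minority of cells. Of 26 mitosis genes, 41 cells had 0 or 1 detected and 12 cells at least 5, and 1 cell had all 26. At least 5 of 23 replication and S phase genes were detected in 19 cells, and 10 cells met both counts. Mki67, the proliferation antigen, was detected in 15 cells (22.1%, 12.9 to 33.8%) at up to 1839 CPM. Top2a, a topoisomerase of dividing cells, was detected in 13 cells. Of these, 10 also had Mki67, where the product of shares would give 2.87. The summed level of the mitosis genes had a rho of 0.53 with genes detected after thinning. Of 17 measured mitosis genes 14 lay above the trend (median 0.29).

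Transcripts of both sexes' chromosomes occurred among the cells. Xist, expressed from the inactive X of females, ranged from 0 to 1577 CPM with a median of 11.5 CPM, and the sum of the Y-linked genes Ddx3y, Eif2s3y, Kdm5d and Uty from 0 to 2084 CPM with a median of 14 CPM. At 100 CPM or more, 20 cells had Xist alone, 23 had the Y-linked sum alone, 5 had both and 20 had neither. Their Spearman's rho was -0.38. The labels name no animal, so the CVs and correlations given here may hold differences between animals, which cannot be told apart from differences between cells of 1 animal. Whether the 5 cells held RNA of more than 1 cell was not tested. Leaving them out gave 19 uniform genes, 2032 on-off genes and 97 rare high genes.

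**Figure D5:**
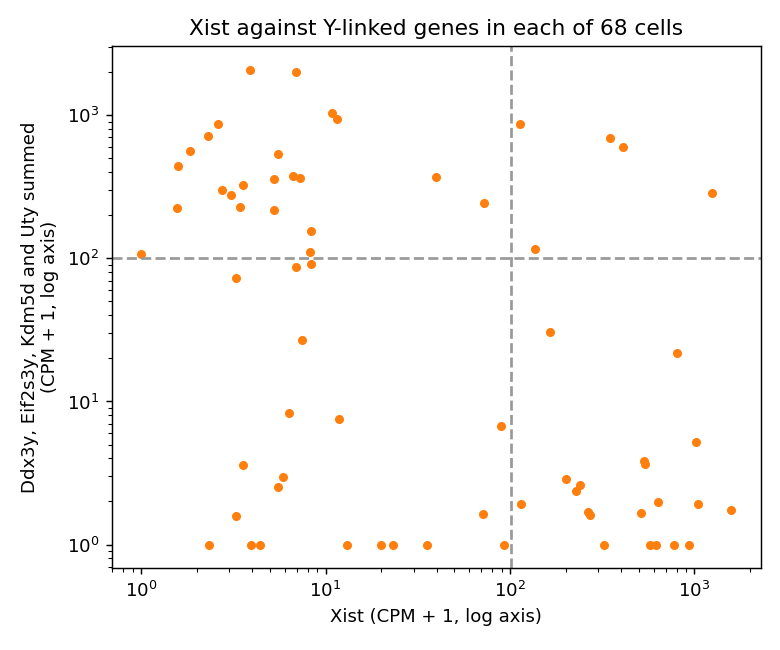
Xist (x) against the summed level of 4 Y-linked genes (y) in each of the 68 cells, both as CPM + 1 on log axes, with dashed lines at 100 CPM. Most points past a line are past only that one, with 25 cells past the Xist line, 28 past the Y line and 5 past both.

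A small share of gene pairs had a high correlation. Of 7552441 pairs among 3887 measured genes detected in at least 16 cells, 1537 had a rho of 0.5 or more (0.0204%), and 743 of these kept it in thinned counts. Without the 17 cells with the fewest reads the count was 5402, which held 1014 of the 1537. A count over fewer cells is not directly comparable, since rho spreads more widely with fewer cells. The median rho of all pairs was 0.05 and the 99th percentile 0.34. Of the 1537, 866 were pairs of protein-coding genes that did not overlap, held no ribosomal protein and were not both mitochondrially encoded, and 312 of them kept the level in thinned counts. Pseudogenes took part in 388 of the pairs, both genes were ribosomal proteins in 131, and both mitochondrially encoded in 65. Several of the highest coding pairs are near-identical genes, such as Eno1 and Eno1b (0.92). Stmn1, a microtubule regulator of growing cells, had 0.66 with Hmgn2 and 0.63 with Ppia.

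The main axis of variation followed the number of genes detected. The first principal component of log2(CPM + 1) held 6.93% of the variance and had a rho of 0.99 with genes detected after thinning and -0.55 with the mitochondrial share. Stmn1, Hmgb2 and Btg2 were among its 8 heaviest genes toward cells with more genes. The second held 2.40%, with rho of 0.06 with genes detected. Gimap5, Ccl4, Cd9, Serpina3g and Il6 weighed at its negative end, and Tbck, Fcgr3 and Mdm4 at the positive end. Those at the negative end belong to the set chosen above from these same cells, so this is not separate support for it. CPM of 1.09% of measured genes had a rho past 0.5 in size with genes detected after thinning, 0.954% rising and 0.139% falling, and Cpa3 (0.08), Mcpt1 (0.15), Cma1 (0.12) and Tpsb2 (-0.05) were not among them.

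Levels in the cells and in the WT bulk library were alike in part. Genes under 20 CPM on average in the cells were left out of this comparison, among them Il13 (4.53 CPM). Over 4407 measured genes with at least 50 bulk reads, rho of the mean CPM of cells with bulk CPM was 0.61 across genes, which are not independent replicates, and the median log2 difference was -0.03 (SD 1.12). Cpa3 stood at 14868 CPM in bulk and Mcpt1 at 9742 CPM, near their cell means of 18040 and 9294 CPM. Cma1 stood at 1295 CPM in bulk against a cell mean of 5711 CPM, to which its highest cell contributed 18.8%. The libraries come from different mouse models, so preparation and model cannot be told apart.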

How the data were processed

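The labels describe column-based RNA isolation and standard Illumina libraries. HISAT, featureCounts and Subread 2.0.0 are the tools in the submitters' processing notes, which also name the builds GRCm38 and mm9 without roles. The authors deposited unnormalized gene counts for cells and bulk libraries. Among the 55471 gene IDs deposited, 54937 had the coordinates of GENCODE M21 (GRCm38). Strand and multi-mapping settings were not stated. Each cell was scaled to CPM by its gene reads (python 3.11.15, numpy 2.4.6, pandas 2.3.3, scipy 1.17.1). No doublet caller and no clustering was used, since cells were sorted individually. Symbols naming more than 1 gene were left out of lists. The code was tested on simulated data. Members, 41 gene lists and call rules were chosen with earlier results of these data known. Genes named were the gate, marker and cytokine genes, the extremes of each rule and list, and partners at rho 0.5 or more, and others were chosen after their values were seen. Alternatives covered scaling, thinning, detection, level minimum and cells kept. Reads are not independent molecules, so intervals and limits cover counting only.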

Additional observations from a re-analysis of the deposited data

Results flagged for a closer look

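Immunoglobulin genes took 73.2% of the reads of cell 46 and 48.1% of the reads of cell 37, both removed, against at most 0.162% in the 68 kept cells. These reads lie in cells the comparisons did not use, which is why they are given. Igha, the IgA heavy chain, stood at 378270 CPM in cell 46 and 238349 CPM in cell 37. Cpa3 stood at 40.8 and 187 CPM in the same cells, under the lowest kept cell at 4637 CPM, and Fcer1a at 9.65 and 80.3 CPM.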

How the results depend on the processing

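No paired analysis was possible because the cells form 1 sample with no test and their numbers are names. The counts of 22 uniform, 2014 on-off and 91 rare high genes stayed within 1.5 times under both other scalings, thinning and detection at 10 CPM. With detection at 1 read there were 259 on-off and 13 rare high genes. With all 81 cells, 1 of which had 1225 reads, there were 1 uniform and 193 rare high genes, and the mitochondrially encoded genes reversed to a median of 0.65 log2 above the trend. Without the 17 cells with the fewest reads there were 58 uniform genes, 30 rare high genes and 5402 gene pairs at rho 0.5 or more. Those pairs held 1014 of the 1537 found with all kept cells. A CV limit of 0.75 gave 88 uniform genes, and a highest level of 500 CPM gave 380 rare high genes. The median of growth and cytokine receptors reversed to -0.15 with no minimum of mean CPM. Detection shares stayed inside their main intervals in 268 of 290 repeats, and 21 of the exceptions were at detection of 1 read. Leaving out the 5 cells with Xist and Y-linked genes, or the 2 cells with the most rare high genes, both chosen after seeing the data, kept every count within 1.5 times. Spearman's rho fell under 0.5 in at least 1 repeat for 6 of 16 named pairs (lowest 0.43, Tpsb2 and Laptm5). A floor of 10 reads limits what can be called absent.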
